A study of Mus musculus with 2 samples.

Results

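Macrophages of the E14.5 fetal liver were examined in single-cell transcriptomes of an LSK sort (lineage-negative, SCA1-positive, cKIT-positive) from IκBα WT and KO embryos. The cells were chosen by their own counts. A cell had to hold at least 10 UMIs summed over the complement genes C1qa, C1qb and C1qc, and at least 1 UMI of at least 2 of the 6 genes Adgre1, Marco, Cd5l, Fcna, Hmox1 and Aif1. A UMI (unique molecular identifier) marks an original RNA molecule. The rule chose 71 of the 3458 WT cells that passed the quality filter, which is 2.05% (95% exact interval 1.61 to 2.58). It chose 114 of 4417 such KO cells, which is 2.58% (2.13 to 3.09). KO minus WT came to 0.528 percentage points, with an interval from -0.166 to 1.21. That interval included 0, but it did not for cells with at least 50 C1q UMIs, at 0.619 points (0.0535 to 1.17), nor for cells with at least 10 C1q UMIs per 10000 UMIs, at 0.973 points (0.358 to 1.58).

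The series compared CD1 embryos with and without IκBα, the NF-κB inhibitor encoded by Nfkbia, in the blood progenitors of the fetal liver. WT cells came from 2 embryos pooled into a library, and KO cells from 3 pooled embryos of a germline knockout line, in which every cell of the embryo lacks the gene. By the study's methods, the mix that depleted lineage-positive cells left out CD11b, and they name no F4/80 antibody for the sort. With 1 library per genotype no test of genotype was possible, all intervals cover counting error only, and genotype cannot be told apart from the library, the pool of embryos and their sex. The sample titles name LT-HSCs while the cell type entries name LSK cells, and neither is a macrophage population: the macrophages were a minority that came through the depletion and the sort. Chosen cells held 3212742 UMIs in WT and 2795923 in KO, with a median of 40349 UMIs per cell (2813 to 178488) in WT and 18664 (2564 to 87956) in KO. Other cells had medians of 27860 and 19563. The libraries shared 7 cell barcodes.

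Fetal liver macrophages stand at the centre of erythroblastic islands, where erythroblasts divide and mature on their surface. They engulf the nuclei that red cells shed, digest them in lysosomes and return the iron, and they are forerunners of the Kupffer cells of the adult liver. C1q, the recognition part of the classical complement pathway, binds dying cells and debris, and in blood tissue it is made mainly by macrophages and their kin.

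The 3 C1q genes lie next to each other on the minus strand of chromosome 4 of GRCm38. C1qb spans 136880129 to 136886187, C1qc 136889804 to 136893065 and C1qa 136895917 to 136898803 (GENCODE vM21). In WT macrophages the summed levels were 552 CPM (a gene's UMIs scaled to a common total per library) for C1qa, 893 CPM for C1qb and 544 CPM for C1qc. In KO macrophages they were 1087, 1254 and 927 CPM, in the same order. Other cells lay between 0.885 and 2.00 CPM in WT and between 1.71 and 2.46 CPM in KO. All chosen cells held UMIs of each C1q gene. The rule asked for at least 10 UMIs of their sum, which makes the lack of any 1 gene unlikely. The rule also fixed the contrast with other cells in advance.

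C1qb and C1qa were not counted in the same proportion in the libraries. There were 1.62 C1qb UMIs per C1qa UMI in WT and 1.15 in KO. The ratio was 1.66, 1.64 and 1.52 in WT cells of low, middle and high C1q share, defined further on, and 1.02, 1.24 and 1.10 in the corresponding KO cells. The log2 KO/WT was 0.49 (0.42 to 0.56) for C1qb and 0.98 (0.89 to 1.06) for C1qa, 2 genes whose counting intervals did not meet. In the few C1q UMIs of the other cells, WT had 210 of C1qb and 93 of C1qa, and KO had 237 and 177. Reads were not used here, so whether the C1q genes were captured and counted alike in both libraries was not tested.

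The promoters of the C1q genes are shown because these genes are neighbours and served to choose the cells. RefSeq (GRCm38.p6) windows of 300 bases that reach over the gene start were at hand for C1qb (chr4:136886151-136886450) and C1qc (chr4:136892865-136893164), both given 5′ to 3′ on the minus strand. Capitals mark GAGGAA on either strand, a purine box of the type bound by PU.1, the factor encoded by Spi1.
C1qb: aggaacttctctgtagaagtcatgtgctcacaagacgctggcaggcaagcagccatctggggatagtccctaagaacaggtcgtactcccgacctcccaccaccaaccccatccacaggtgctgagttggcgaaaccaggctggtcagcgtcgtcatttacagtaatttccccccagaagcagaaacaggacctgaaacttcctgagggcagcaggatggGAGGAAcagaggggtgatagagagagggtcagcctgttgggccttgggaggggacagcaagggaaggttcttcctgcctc
C1qc: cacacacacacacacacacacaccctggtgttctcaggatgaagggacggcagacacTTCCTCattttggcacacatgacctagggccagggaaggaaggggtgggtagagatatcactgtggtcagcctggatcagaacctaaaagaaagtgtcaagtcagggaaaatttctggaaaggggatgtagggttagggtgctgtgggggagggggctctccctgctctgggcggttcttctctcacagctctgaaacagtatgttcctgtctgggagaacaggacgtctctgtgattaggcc
Each window held 1 such box, and 28.3% of 32851 promoters held at least 1, so that the box is common. The MAF half-site TGCTGA (either strand) was found once in the C1qb window and not in the C1qc window, against 19.5% of promoters. These are matches of letters and say nothing of binding.

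Cells on both sides of the threshold were few. In WT 4 cells with at least 2 of the markers had 9 C1q UMIs and 4 had 10, and in KO 1 cell had 9 and 3 had 10. The sum ran from 10 to 375 UMIs (median 82) in WT and from 10 to 211 (median 74.5) in KO. In KO 1 cell with at least 10 C1q UMIs lacked the second marker. A further 1 WT and 5 KO cells fitted the C1q rule but failed the quality filter. Among the cells that were not chosen, 5.99% in WT and 8.25% in KO held any C1q UMI, and 135 of 203 such WT cells and 271 of 355 such KO cells held a single one.

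The label was checked against genes that the rule did not use. Csf1r, the receptor for the macrophage growth factor CSF1, was detected in 88.7% of WT and 93.0% of KO macrophages, and in 2.04% and 1.94% of cells with UMIs of the stem cell genes Hlf, Mecom and Procr. Timd4, a receptor for phosphatidylserine on dying cells, was found in 53.5% and 67.5% of macrophages. Lyz2, the myeloid lysozyme, was in all macrophages, but also in 83.7% of WT and 74.8% of KO stem cell gene carriers, so that its presence alone marks no macrophage.

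Macrophage identity was carried by a broad gene programme. Of 6231 genes with at least 100 UMIs in the macrophages of both libraries together, 270 (4.33%) were at least 4-fold higher in CPM than in the other cells of the same library, in WT and in KO alike. These are called enriched genes here. The groups of the programme are described by their counts of enriched genes, and the choice of cells by C1q and 6 markers makes all of these a description.

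The genes with the highest lower fold of the libraries were Folr2, Ccl24, Ms4a7, Fcrls, Timd4, C3ar1, Clec4a1, Pltp, Msr1, Clec4f, Slc11a1, Spic, Gas6, Clec4n and Il18bp, leaving out the rule's genes. Folr2, a folate receptor of resident macrophages, was 430-fold higher (250 to 802) in WT and 1377-fold higher (624 to 3791) in KO. Ccl24, a chemokine for eosinophils, was 379-fold higher (272 to 543) in WT and 406-fold (307 to 547) in KO, and was detected in 74.7% and 79.8% of macrophages. C3ar1, the receptor for the complement fragment C3a, had 90 UMIs in WT macrophages against 2 in all other WT cells, a ratio of 1472 with a counting interval from 396 to 12343. Gas6, which bridges dying cells to the receptors Axl and Mertk, was 107-fold higher in WT and 201-fold in KO.

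Receptors for dead cells and scavenger receptors formed a large part of the programme, with 10 of 16 tested genes enriched against 4.33% of all genes. Mrc1, the mannose receptor, was 46.7-fold higher in WT and 53.1-fold in KO. Msr1 was 205-fold and 293-fold higher, Mertk 56.1-fold and 58.4-fold, Axl 33.8-fold and 47.5-fold, and Stab1 29.5-fold and 27.1-fold. Not all phagocytic genes followed: Scarb1 and Elmo1 were 1.78-fold and 1.38-fold higher in WT, and Cd93 1.47-fold. Of 10 tested complement genes, 8 were enriched, but 4 of these, the C1q genes and Fcna, had served to choose the cells. Of the other 6 tested, 4 were enriched, among them C5ar1, the receptor for the fragment C5a. C5ar1 had 67 UMIs in WT and 91 in KO macrophages against 3 and 5 in all other cells.

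Kupffer cell genes were present before birth. Of 8 tested, 7 were enriched, against 4.33% of all genes. Slc40a1, the iron exporter ferroportin, was 14.4-fold higher in WT and 26.9-fold in KO and was detected in 90.1% and 96.5% of macrophages. Clec4f, a Kupffer cell lectin, was 204-fold and 512-fold higher but was found in only 29.6% and 19.3% of macrophages. Other adult markers were scarce: Vsig4 had 18 UMIs in WT and 9 in KO, and Cd163, the haemoglobin scavenger receptor, had 6 in each.

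Genes of haem and iron handling divided into enriched and shared ones. Of 16 tested, 4 were enriched, against 4.33% of all genes, and 1 of the 4, Hmox1, was used by the rule. Hmox1, a haem oxygenase, reached 496 CPM in the WT macrophages and 1061 CPM in those of KO. Slc11a1, which moves iron and other metals out of the phagosome, was 168-fold and 233-fold higher than in other cells. Spic, the transcription factor of iron-recycling macrophages, was 124-fold and 195-fold higher. Blvrb, the biliverdin reductase abundant in erythroid cells, was at 0.62-fold in both libraries, and the transferrin receptor Tfrc at 0.51-fold and 0.58-fold. The ferritin chain Ftl1 was 2.67-fold and 3.71-fold higher.

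Of 37 tested lysosome genes, 16 were enriched, against 4.33% of all genes. The protease genes ran from Lgmn (legumain), 92.9-fold and 60.9-fold higher, and Ctss, 43.4-fold and 67.5-fold, through Ctsb, 9.09-fold and 13.3-fold, to Ctsl, 3.83-fold and 3.60-fold. Atp6v0c of the proton pump was 1.94-fold and 2.65-fold higher. Dnase2a, the lysosomal nuclease that digests expelled erythroblast nuclei, was 2.58-fold higher in WT and 4.29-fold in KO, below the 4-fold line in WT.

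Genes of the island itself varied, with 3 of 10 tested enriched, against 4.33% of all genes. Vcam1, which binds erythroblasts, was 45.2-fold and 23.9-fold higher, and Igf1, a growth factor, 27.4-fold and 77.8-fold. Maea, the erythroblast macrophage protein gene, was at 0.98-fold and 1.05-fold, the level of the other cells. Genes of class II antigen presentation were nearly absent: H2-Aa had 0 UMIs in WT and 1 in KO, Cd74 had 23 and 16, whereas the co-stimulatory Cd86 was 23.0-fold and 49.0-fold higher.

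Among transcription factors, 5 of 13 tested were enriched, against 4.33% of all genes. They included Nr1h3 (62.9-fold and 83.8-fold, the LXRα gene), Maf (24-fold and 29.3-fold) and Id3 (7.03-fold and 7.53-fold). Spi1, the PU.1 gene, was 3.15-fold and 4.27-fold higher and was detected in 84.3% and 71.8% of stem cell gene carriers. Cells positive for Csf1r, Irf8 and Ly86 with under 10 C1q UMIs (79 in WT, 81 in KO) were set beside the macrophages, and the rule itself separates both by C1q. Their lysosome genes made up 31.6 and 35.1 UMIs per 10000, against 68.2 and 99.9 in macrophages. Those cells carried 14.4 and 14.1 UMIs per 10000 of a list of primed monocyte genes, and macrophages 3.89 and 2.09.

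The macrophages were not alike. The share of C1q UMIs in a cell's RNA ran from 1.49 to 187 per 10000 in WT (median 21.9) and from 1.97 to 164 in KO (median 41.5). They were therefore described in steps set after these values had been seen: low (under 10 C1q UMIs per 10000), middle (10 to 50) and high (50 or more). WT had 24 low, 35 middle and 12 high cells, and KO had 11, 56 and 47.

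**Figure D1:**
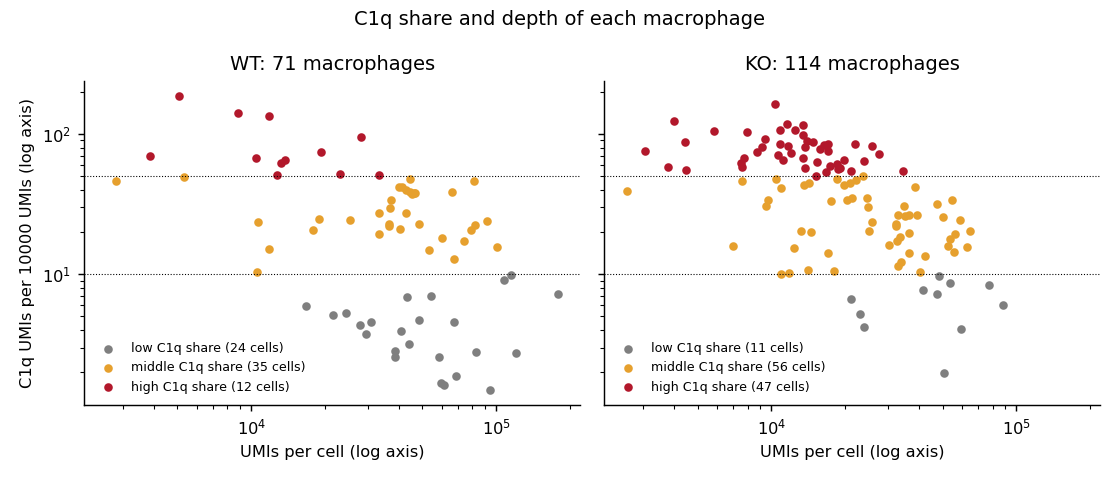
C1q UMIs per 10000 UMIs (y axis, log) against the total UMIs (x axis, log) of each macrophage, 71 in WT (left) and 114 in KO (right). Dotted lines at 10 and 50 separate the steps, and cells of high share sit at low totals.

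Cells of low share were deep and cells of high share shallow. Median totals of low, middle and high cells were 51412, 42760 and 13016 UMIs for WT, and 48529, 25332 and 13431 UMIs for KO. A shallow cell reaches 10 C1q UMIs only at a higher share, so the rule itself sets part of this relation. A panel of 4 other macrophage genes (Csf1r, Mrc1, Timd4 and Cd68) followed C1q: it went along the steps from 1.95 to 6.18 and 19.1 UMIs per 10000 in WT and from 2.30 to 7.33 and 17.4 in KO. Over the cells, the panel share and the C1q share had a Spearman rho of 0.88 in WT (71 cells) and 0.82 in KO (114 cells), points that share a library and a depth.

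The progenitor genes Kit and Myb ran the opposite way, but not all progenitor genes did. Kit, one of the genes behind the sort, was at 0.50, 0.32 and 0.16 UMIs per 10000 in low, middle and high WT cells and at 0.84, 0.48 and 0.08 in KO. The 12 high WT cells held 3 Kit UMIs in all and the 47 high KO cells held 5. Ly6a, which encodes SCA1, showed no such order: it was at 0.07, 0.09 and 0.11 in WT and at 0.04, 0.07 and 0.08 in KO, against 0.06 and 0.05 in other cells. Myb, a factor of blood progenitors, was at 0.96, 0.82 and 0.22 in WT and at 1.65, 1.04 and 0.20 in KO. Other cells of the sort lay at 1.30 and 1.27 for Myb. The stem cell genes Hlf, Mecom and Procr summed to 0.62, 0.57 and 0.71 in WT and to 0.86, 0.65 and 0.34 in KO. The high WT value came from 13 UMIs in 2 cells. Cd34, another progenitor gene, was at 1.08, 1.38 and 0.38 in WT. Ptprc, the CD45 gene of leukocytes, was at 1.69 and 1.40 in high cells, above 0.47 and 0.52 in low cells.

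**Figure D2:**
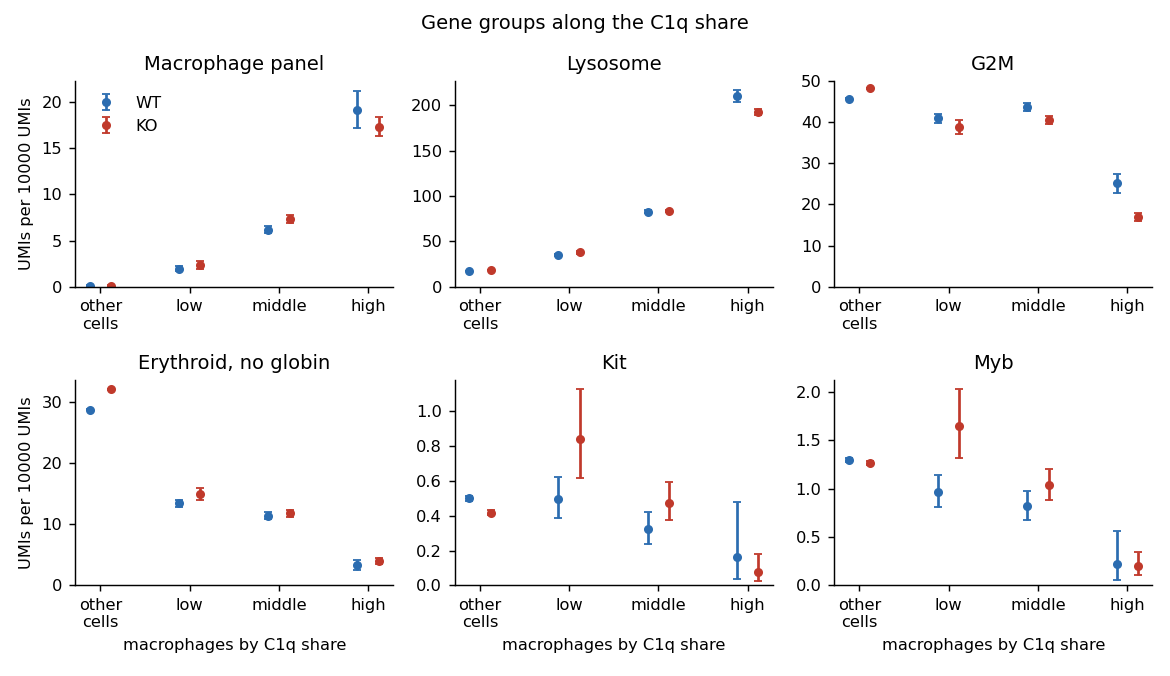
UMIs per 10000 UMIs of a 4-gene macrophage panel, lysosome genes, G2M genes, erythroid genes without globins, Kit and Myb, in other cells and in macrophages of low, middle and high C1q share; points are the summed level of 1 library (WT blue, KO red) and bars the 95% Poisson interval. The macrophage panel and the lysosome genes go up along the share, and the G2M, erythroid, Kit and Myb levels are lowest at its upper end.

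Cell cycle genes set the high cells apart. G2M genes made up 41.0, 43.7 and 25.1 UMIs per 10000 in low, middle and high WT cells and 38.8, 40.6 and 17.0 in KO, against 45.8 and 48.3 in other cells. The median high cell lay at 5.69 in WT and 4.19 in KO. Because depth differed, each cell was thinned to 8500 UMIs, and cells with at least 3 UMIs over the G2M list were counted. In a single random draw per cell these were 7 of 10 high WT cells and 28 of 37 high KO cells, or 70.0% (34.8 to 93.3) and 75.7% (58.8 to 88.2). They were 32 of 33 middle WT cells and 49 of 53 middle KO cells, and 23 of 24 and 11 of 11 low cells. Over all macrophages the share was 92.5% (83.4 to 97.5) in WT and 87.1% (79.0 to 93.0) in KO, so that KO minus WT was -5.41 percentage points with an interval from -14.9 to 5.4, and thinning left out 4 WT and 13 KO cells. Without thinning the shares were 94.4% and 88.6%. Mki67, a proliferation marker, was at 0.89-fold and 0.72-fold of its level in other cells, and none of the 25 G2M genes was enriched.

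Some low and middle cells also carried RNA of other lineages. Erythroid genes without globins were at 13.4, 11.4 and 3.27 UMIs per 10000 in low, middle and high WT cells and at 14.9, 11.8 and 3.93 in KO. These sums rested on a minority of middle cells: the median cell lay at 5.66, 3.54 and 2.43 in WT and at 16.1, 3.64 and 2.94 in KO, and 1 middle WT cell held 23.5% of the UMIs of its step. In WT, 2 low cells held 483 and 468 UMIs per 10000 of the hepatocyte genes Alb, Afp, Apoa1 and Ttr, while the median low cell held 0.47. Neutrophil genes reached 172 UMIs per 10000 in 1 low KO cell against a median of 2.62 in such cells. The endothelial list reached 44.0 in a middle WT cell and 56.1 in a middle KO cell, with medians of 0.60 and 0.54 among middle cells.

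Doublets were called with Scrublet and kept, since the rule did not remove them. The calls covered 4 of 24 low, 2 of 35 middle and 0 of 12 high cells in WT, and 3 of 11, 13 of 56 and 1 of 47 in KO, against 135 of all 3458 WT cells and 256 of all 4417 KO cells. Sex genes gave another measure in KO, whose pool held both sexes. Xist, the X-inactivation RNA of female cells, and Y-linked genes were found together in 4 of 11 low, 12 of 56 middle and 1 of 47 high KO cells, or 36.4% (10.9 to 69.2), 21.4% (11.6 to 34.4) and 2.13% (0.0539 to 11.3). In other KO cells the share was 6.14% (5.44 to 6.89). It was higher in KO cells positive for Csf1r, Irf8 and Ly86, at 12 of 81 or 14.8% (7.90 to 24.5). In KO carriers of Hlf, Mecom and Procr UMIs it was 11 of 103 or 10.7% (5.45 to 18.3). Such pairs were thus not particular to the chosen cells. Low cells were also the deepest. By these markers the macrophage label held for the high cells. Summed low and middle cells combined macrophage RNA with Kit and Myb RNA above the level of the high cells. The part of depth and doublets in this was not tested.

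Erythroid RNA was examined because macrophages of the island touch and engulf erythroid cells. Adult and embryonic globins made up 0.731% (0.722 to 0.740) of macrophage UMIs in WT and 1.11% (1.10 to 1.12) in KO. Other cells held 3.74% and 5.16%. The sums rested on a few cells. The median macrophage held 0.112% in WT and 0.187% in KO, and the median carrier of Hlf, Mecom and Procr UMIs held 0.221% and 0.160%. The median macrophage thus lay below those cells in WT and slightly above them in KO. The median high cell held 0.275% in WT and 0.238% in KO, above the stem cell gene carriers in both libraries. Cells positive for Csf1r, Irf8 and Ly86 had medians of 0.0532% and 0.0856%, below the median macrophage in both. High cells were shallow, with median totals of 13016 UMIs in WT and 13431 in KO, against 27860 and 19563 in cells not chosen. The part of depth in these globin shares was not tested.

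Globin passed 1% of UMIs in 8 of 71 WT and 9 of 114 KO macrophages. Without them the summed share was 0.127% in WT and 0.196% in KO, and 0.231% and 0.181% in stem cell gene carriers treated alike. Globin above 10% was found in 2 WT cells (12.1% and 42.8%) and 3 KO cells (21.9%, 28.4% and 37.6%). All of these 5 held between 25 and 109 C1q UMIs.

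Erythroid genes other than globins were counted beside them. A list of 32 such genes, with Alas2 (the first haem synthesis enzyme of red cells) and Klf1 (the erythroid factor) among them, was at 10 or more UMIs per 10000 in 17 WT and 25 KO macrophages. Of these, 6 WT and 9 KO cells also had at least 1% globin, and the other 11 and 16 did not. Among cells not chosen, 969 in WT and 1157 in KO had such genes without 1% globin. Among high cells, 0 of 12 in WT and 3 of 47 in KO had 10 or more UMIs per 10000 of these genes, and those 3 also had at least 1% globin.

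**Figure D3:**
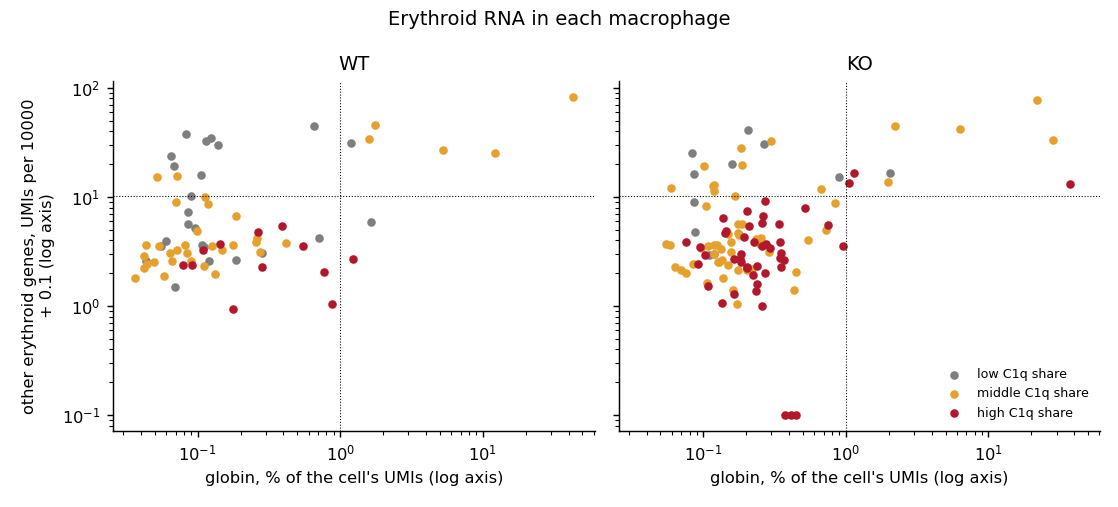
Globin (x axis, percent of a cell's UMIs, log) against erythroid genes other than globins (y axis, UMIs per 10000 plus 0.1, log) in each WT (left) and KO (right) macrophage, coloured by C1q share. Dotted lines mark 1% and 10 per 10000, and most cells lie below both, 52 of 71 in WT and 89 of 114 in KO.

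The ratio of both kinds of erythroid RNA varied among globin-rich macrophages. Other cells with at least 10% globin had a median of 3.42 non-globin erythroid UMIs per 100 globin UMIs in WT (473 cells, lowest 1.06) and 3.28 in KO (791 cells, lowest 0.876). The WT macrophages lay at 1.92 and 2.07. The KO macrophages lay at 3.51, 1.17 and 0.35. The last of these, the cell with 37.6% globin, had 13673 UMIs, 78 C1q UMIs, a G2M share of 0.731 per 10000 and 34 Hmox1 UMIs, and its ratio was below that of all 791 other KO cells with at least 10% globin.

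Embryonic globins gave a separate pattern. Hbb-y, the embryonic β-like globin that primitive red cells of the yolk sac make, was found with 19 UMIs over 7 macrophages of WT and 44 UMIs over 13 of KO. The level was 5.91 CPM (3.56 to 9.24) for WT and 15.7 CPM (11.4 to 21.1) for KO, against 1.5 CPM (1.28 to 1.76) and 1.55 CPM (1.31 to 1.82) among all other cells. Hbb-bh1, another embryonic β-like globin, ran the other way, at 0.311 CPM in the WT and 1.07 CPM in the KO macrophages against 24.4 and 14.6 CPM in other cells. Hba-x, the embryonic α-like globin, was at 3.73 and 3.22 CPM in macrophages and at 4.39 and 4.03 CPM in other cells.

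The Hbb-y UMIs rested on few cells, not all of them rich in globin. Single cells held 10 of the 19 WT UMIs and 18 and 10 of the 44 KO UMIs. The WT cell had 1.59% globin. The KO cell with 18 had 0.166% globin in all, 173 Hmox1 UMIs and 6 Hba-x UMIs, and the one with 10 had 0.12%. Both KO cells were called doublets by Scrublet and were deep, with 59122 and 64413 UMIs, while the WT cell was not called. The part of doublets in the Hbb-y counts was not tested. Hbb-y was seen in 14.9% of high KO cells and in none of the 12 high WT cells.

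Nfkbia was examined as the targeted gene (chromosome 12 of GRCm38, 55489410 to 55492647, minus strand). It had 123 UMIs in 46 of 71 WT macrophages and 0 UMIs in 114 KO macrophages. The WT level was 38.3 CPM (31.8 to 45.7), 2.97-fold that of other WT cells, and 0 UMIs allow up to 3 UMIs over the KO group. Against that floor, log2 KO/WT was at most -5.16. The count of 0 goes with the KO label.

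The share of macrophages by step differed more than their total. Low cells made up 0.694% of the WT library and 0.249% of the KO library, and KO minus WT was -0.445 percentage points (-0.804 to -0.128). For high cells the shares were 0.347% (0.179 to 0.605) and 1.06% (0.783 to 1.41), and KO minus WT was 0.717 points (0.335 to 1.10). Middle cells were 1.01% and 1.27%, with an interval of the difference from -0.244 to 0.74. High cells were thus 16.9% of WT and 41.2% of KO macrophages. KO macrophages were also shallower, with a median of 18664 UMIs against 40349 in WT, and the rule admits a cell of low share only if it is deep. Whether the make-up follows from genotype, depth, embryo pool or the sort cannot be told apart with 1 library each.

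KO and WT sums were compared beside this make-up. Over the 6231 genes, log2 KO/WT had a median of 0.04, and 73 genes (1.17%) were at 1 or more and 61 (0.979%) at -1 or less. Over the 270 enriched genes the median was 0.67, with 45 at 1 or more and 0 at -1 or less, and 261 lay above 0. In the high cells alone, in which 134 of the enriched genes had at least 100 UMIs, the median was -0.02, with 7 at 1 or more and 3 at -1 or less. Over all 1264 genes with as many UMIs in high cells, the median was 0.05, with 20 at 1 or more and 11 at -1 or less. Of the 73 genes, 26 could be measured among high cells and 3 of these kept a value of 1 or more, while 22 kept their sign. Of the 61 genes, 4 could be measured there, and 3 of these stayed at -1 or less. Values for macrophage genes are therefore given for all macrophages and for the high cells, in that order.

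**Figure D4:**
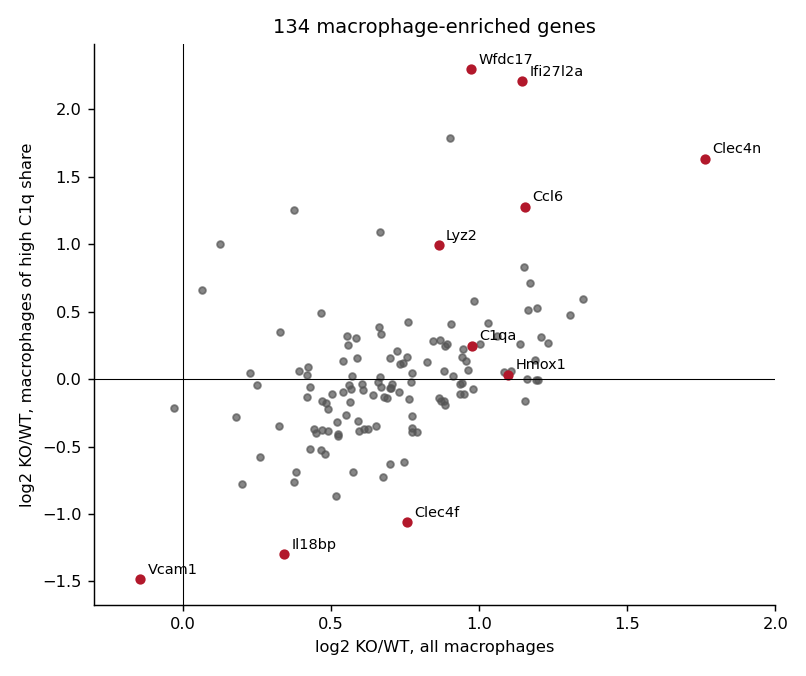
log2 KO/WT of 134 macrophage-enriched genes in all macrophages (x axis) and in macrophages of high C1q share (y axis); each point is a gene, and named genes are red. Nearly all points lie to the right of 0, and on the y axis they spread around 0, with Clec4n, Wfdc17 and Ifi27l2a above and Vcam1, Il18bp and Clec4f below.

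Genes of macrophage identity illustrate the shift. Csf1r was at 0.88 (0.73 to 1.03) in all macrophages and at 0.06 (-0.23 to 0.37) in high cells. Timd4 was at 1.20 in all macrophages, with an interval in high cells from -0.41 to 0.42. Hmox1 was at 1.10 and 0.03, and Adgre1, the F4/80 gene, at 0.74 and -0.62. Among lysosome genes, 0 of 37 were at 1 or more and 0 at -1 or less, against 1.17% and 0.979% of all genes. Above 0 lay 3510 of all 6231 genes and all 37 lysosome genes, the latter with a median of 0.49. In high cells the median over 29 of them was -0.14. Ctsz was at 0.97 and 0.57 (0.32 to 0.82), whereas Ctsd was at 0.48 and -0.55 (-0.69 to -0.42). The Kupffer genes had a median of 0.85, and of -0.02 in high cells. The dead cell receptors had medians of 0.65 and -0.09, and the haem and iron genes 0.42 and -0.13.

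NF-κB genes were compared because IκBα holds this factor in the cytoplasm. Of the list of NF-κB factors and inhibitors, 6 genes had enough UMIs. Apart from Nfkbia, Nfkb1 was at 0.03 (-0.34 to 0.40), Rela at 0.29 (-0.12 to 0.70), Rel at 0.80 (0.26 to 1.35), Nfkbib at -0.07 (-0.46 to 0.31) and Ikbkb at 0.22 (-0.26 to 0.70). Of 16 tested NF-κB target genes, 2 were at 1 or more (against 1.17% of all genes) and 0 at -1 or less, with a median of 0.34. Among the 16 were 6 enriched genes, and the enriched genes as a whole had 45 of 270 at 1 or more and a median of 0.67. In high cells 5 of the 16 targets could be measured, with a median of -0.02 and 1 at -1 or less. With at least 300 UMIs per gene the median of the targets in all macrophages was -0.105. The direction of this list therefore depended on the cells and genes taken. The 2 were Ccl2, a monocyte chemokine, at 1.62 (1.14 to 2.12), and Ltb, lymphotoxin β, at 1.07 (0.67 to 1.48). In high cells Ccl2 was at 0.88 (-0.14 to 2.08), with 9 UMIs in WT and 58 in KO, and Ltb had 4 and 22.

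Other inflammatory targets were near silent in both libraries. Il1b had 7 UMIs in WT and 6 in KO macrophages, Tnf 4 and 10, Il6 2 and 1, and Tnfaip3, an inhibitor induced by NF-κB, 6 and 6. Differences in these 4 genes were not detectable at this depth. Cxcl2, a neutrophil chemokine, was found with 45 UMIs over 4 cells of WT, 93.3% of them in 1 cell, and with 8 UMIs over 5 cells of KO. Sod2 was at -0.08 (-0.27 to 0.11) and Icam1 at 0.22 (-0.25 to 0.68). Of 13 tested interferon response genes, 1 was at 1 or more (against 1.17% of all genes) and 0 at -1 or less. That gene, Ifi27l2a, was at 1.15 in all macrophages, with 31.4% of its KO UMIs in 1 cell. In high cells Ifi27l2a was at 2.21 (1.33 to 3.24), with 11 UMIs in 3 WT cells and 178 in 15 KO cells. Single high cells held 45.45% of these WT UMIs and 40.45% of these KO UMIs.

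Some genes stood apart from the common shift also among high cells. Clec4n, the lectin receptor dectin-2, was at 1.76 (1.38 to 2.15) in all macrophages and at 1.63 (0.87 to 2.50) in high cells, where it was detected in 8 of 12 WT and 38 of 47 KO cells. Ccl6, a macrophage chemokine, was at 1.15 and 1.28 (0.53 to 2.13), with 32.4% of the KO UMIs of high cells in 1 cell. Lyz2 was at 0.86 and 0.99 (0.81 to 1.18). Wfdc17, a secreted protein gene of myeloid cells, was at 0.97 and 2.30 (1.38 to 3.38), in 7 of 12 and 30 of 47 high cells.

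Vcam1 lay at the other end, at -0.14 (-0.39 to 0.10) and -1.48 (-1.89 to -1.08). High WT cells held 95 Vcam1 UMIs in 9 of 12 cells, 39.0% of them in 1 cell, and high KO cells held 119 in 20 of 47 cells. Il18bp, which binds the cytokine IL-18, was at 0.34 and -1.30 (-1.76 to -0.83), and Clec4f at 0.76 and -1.06 (-1.62 to -0.49), in 6 of 12 and 14 of 47 high cells. With 12 WT cells in this group, single cells weigh heavily, and the intervals do not include the spread between cells.

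Haem genes varied widely among the high cells. Hmox1 had a median of 19.0 UMIs per 10000 in high WT cells and 17.1 in high KO cells, with highest values of 114 and 157. The share of Hmox1 and that of Spic had a Spearman rho of 0.74 over 12 WT cells and 0.43 over 47 KO cells, points that share a library and the C1q threshold.

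The lowest and highest values of log2 KO/WT belonged mostly to genes of other lineages, with few cells behind them. The 8 lowest were Serpina1a, Vtn, Serpinf2, Itih2, Apom, Fgg, Fgb and Nfkbia, of which all but Nfkbia are genes of hepatocytes. Serpina1a, an α1-antitrypsin gene, had 267 UMIs in WT, 75.3% of them in 1 cell, and 2 in KO. Apom had 353 and 7 UMIs, with 79.0% of the former in 1 cell. Over the 61 genes at -1 or less, 30 had over 50% of their WT UMIs in a single cell, and 0 were enriched genes.

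The 8 highest were Cma1, Elane, S100a8, Treml1, Itga2b, Cpa3, Asb2 and Gm12166. Cma1, the mast cell chymase, had 0 UMIs in WT and 141 in 2 KO cells. Elane, the neutrophil elastase, had 3 UMIs in WT and 139 in KO, and S100a8 had 4 and 133, with 97.1% and 99.2% of the KO UMIs in 1 cell. Treml1 and Itga2b, genes of megakaryocytes, had 97 and 100 KO UMIs, 77.3% and 58% of them in 1 cell. Asb2, a ubiquitin ligase subunit, was spread more widely, with 32 UMIs in 19 WT cells and 120 in 51 KO cells, a log2 KO/WT of 2.11 (1.53 to 2.72). Pf4, a platelet chemokine also made by fetal macrophages, had 1773 and 5300 UMIs, 38.0% of the latter in 1 cell, and its median per cell was 3.25 UMIs per 10000 in WT and 6.15 in KO.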

How the data were processed

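The authors aligned the reads of each library with Cell Ranger 6.0.0 to the mouse genome (mm10, per the labels) and deposited a table of unnormalized UMI counts for 32285 genes in each. The members and gene lists used here were chosen with earlier results of these data known, and the steps of C1q share were set after their values had been seen. The quality filter asked for 1000 or more genes detected in a cell and a mitochondrial share of no more than 20%. Doublet calls by Scrublet (scanpy 1.11.5, expected rate 5%) were not removed. UMIs were summed over the chosen cells of a library and given as CPM with exact Poisson intervals, log2 KO/WT with exact conditional intervals, and shares with exact Clopper-Pearson intervals, from which intervals of differences were combined. All are 95% intervals (scipy 1.17.1). A count of 0 was set to a floor of 3 UMIs over the group. Genes needed 100 UMIs over both libraries. A gene counted as called at a log2 KO/WT of 1 or -1, or at 4-fold over other cells in both libraries. Named genes were Nfkbia, listed genes with at least 100 UMIs, rule and sort genes at any level, the 15 genes highest over other cells (at least 200 UMIs), and the 8 highest and 8 lowest in log2 KO/WT. Listed genes under 100 UMIs (as Il1b, Cd74 or Vsig4), Hbb-y, Wfdc17 and the globin-rich cells were described after their values had been seen. Stem cell gene carriers had under 2 C1q UMIs. Some listed genes are not reported here. The summing and intervals were tested on simulated data. Library totals were 109122324 UMIs in WT and 100029143 in KO. Alternatives covered the C1q, marker and gene minimum, doublets, sex, scaling and thinning, with 3 added later.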

Additional observations from a re-analysis of the deposited data

How the results depend on the processing

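Nfkbia stayed between -5.21 and -4.03 under its 10 alternatives. The KO minus WT share of macrophages, 0.528 points, stayed above 0 under 9 alternatives but ran from 0.222 in female cells to 0.973 at 10 or more C1q UMIs per 10000. Its interval excluded 0 only at 50 or more C1q UMIs and at the limits of 10 and 50 per 10000. The NF-κB target median, 0.342, turned to -0.105 at a gene minimum of 300 UMIs and to -0.0151 at 50 or more C1q UMIs per 10000, was 0.104 at 10 or more, and ran from 0.237 to 0.394 under the other 9. The KO minus WT globin share, 0.379 percentage points, was 0.31 with at least 5 C1q UMIs, 0.594 with at least 50, 0.42 without doublet calls and 0.0573 in female cells. The non-globin erythroid difference of -0.0129 points became 0.0127 with at least 50 C1q UMIs, -0.033 with at least 4 markers and -0.0371 without doublet calls. The lysosome median of 0.49 was 0.335, 0.643 and 0.415 with at least 50 C1q UMIs, 4 markers and female cells. The 73 genes higher in KO became 32 with at least 50 C1q UMIs, 113 with 4 markers, 36 in female cells, and 24 and 220 at gene minimums of 300 and 30 UMIs. The 61 lower genes became 100 and 23 with at least 5 and 50 C1q UMIs, and 27 and 212 at those minimums, which change how many genes are tested. Of the alternatives chosen after seeing the data, at least 10 C1q UMIs per 10000 gave a globin difference of 0.0707, a lysosome median of 0.2, and 12 higher and 15 lower genes. At least 50 per 10000, with 12 WT cells, gave 0.75 for globin, 0.00666 for non-globin genes, -0.14 for lysosome genes, 20 and 11 genes, and 5.68 points for proliferation against -5.41. Leaving out macrophages with 1% globin or more gave 0.069 for globin. The cause of the other changes was not tested. No paired analysis was possible because there was 1 library for WT and 1 for KO. The spread between embryos could not be measured.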
